A study of Mus musculus with 7 samples.

Results

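Neurons build their cytoskeleton from neuronal intermediate filaments and from microtubules that are bound by associated proteins, and 9 genes of this system were followed here in mouse embryonic stem cells with reduced Mettl3, the catalytic subunit of the m6A RNA methyltransferase. The genes were Ina, Nefl, Nefm, Nefh, Nes, Vim, Map2, Tubb3 and Mapt. They were proposed with their differences between Mettl3 knockdown and luciferase arrays already known, so those differences are a description. Whether a gene was past the threshold of the fit over all genes is stated as part of it, and nothing is supported with that. Every probe set whose platform symbol was 1 of these names was taken, which gave 116 probe sets, and 36 more carried Mtap2, an older symbol of Map2. In all these were 152 of 1201338 probe sets on the array, and all 9 genes were among the 16353 genes tested. In RefSeq's GRCm38.p6 table Ina lies on chromosome 19, Nefl and Nefm on 14, Nefh and Mapt on 11, Nes on 3, Vim on 2, Map2 on 1 and Tubb3 on 8.

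RNA of 7 samples of J-1, a line of mouse embryonic stem cells, was hybridised to GeneChip Mouse Exon 1.0 ST arrays, with 1 array a sample. All cells had received a lentivirus and were kept in full media. The virus carried Mettl3 hairpin 1 on 2 arrays, Mettl3 hairpin 2 on 2 arrays and a hairpin to luciferase, the control, on 3 arrays. The labels do not say whether replicates came from separate cultures or infections, so each p-value reflects no more than how these samples vary, and that variation may be technical. With so few arrays, precision is limited.

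Intermediate filaments are rope-like polymers, and cells exchange their subunits as they change fate. Nestin and vimentin are the filament proteins of neural progenitors, while alpha-internexin and the neurofilament light, medium and heavy chains are those of neurons and set the calibre of axons. Microtubules of neurons hold the class III beta-tubulin encoded by Tubb3, and are bound by MAP2 mainly in dendrites and by tau, the product of Mapt, mainly in axons.

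The promoters of the 3 genes whose probe sets are treated in most detail are shown first. They are the 250 bases before the start in RefSeq's GRCm38.p6 table, all on the plus strand, at chr19:47014431-47014680 for Ina, chr1:66175079-66175328 for Map2 and chr3:87970843-87971092 for Nes. Capitals mark GC boxes, searched as GGGCGG on both strands and so also as CCGCCC.
Ina: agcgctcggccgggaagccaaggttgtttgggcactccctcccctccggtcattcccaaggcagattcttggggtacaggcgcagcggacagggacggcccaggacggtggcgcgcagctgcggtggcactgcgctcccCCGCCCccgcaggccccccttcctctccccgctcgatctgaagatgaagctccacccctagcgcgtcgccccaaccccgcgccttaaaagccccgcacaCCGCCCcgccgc
Map2: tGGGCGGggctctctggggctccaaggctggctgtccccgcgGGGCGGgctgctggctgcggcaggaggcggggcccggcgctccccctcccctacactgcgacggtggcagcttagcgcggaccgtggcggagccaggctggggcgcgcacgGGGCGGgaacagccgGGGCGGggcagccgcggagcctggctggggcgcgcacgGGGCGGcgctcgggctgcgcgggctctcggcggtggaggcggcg
Nes: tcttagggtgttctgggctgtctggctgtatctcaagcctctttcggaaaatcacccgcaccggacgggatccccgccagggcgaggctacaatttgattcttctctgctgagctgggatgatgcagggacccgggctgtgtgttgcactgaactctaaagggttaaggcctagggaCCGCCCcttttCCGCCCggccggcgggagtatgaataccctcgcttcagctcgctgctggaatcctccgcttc
The Ina window held 2 GC boxes, the Map2 window 5 and the Nes window 2. The table matched 5 of the 9 genes, and 4 of these 5 held a GC box, as Tubb3 did with 2 and Vim did not. Over all windows of the same length, 10756 of 32851 (32.7%) held one. A match is a description of the letters only.

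A gene value was the median, on each array, of the gene's bright probe sets, meaning probe sets that averaged more than 6.02 (log2) across the arrays, the median over the whole array. All values below are log2, and levels are set side by side only between arrays, for the same gene, probe set or list. Of the 152 probe sets, 129 were bright and 23 dim. The split cuts through a continuous range, and the mean behind it includes the knockdown arrays. By their luciferase mean, 2 bright probe sets of Nes and 2 of Map2 lay below the limit, and 1 dim probe set each of Vim and Mapt lay above it. Probe sets that are bright only through the arrays where they are high had to differ, so counts over the bright probe sets are a description. Just above it lay a Vim probe set at 6.04, with a difference of 0.01, and a Map2 probe set at 6.07, with a difference of 0.94. Just below it lay a Vim probe set at 5.95, with a difference of -0.14, and a Nes probe set at 5.86, with a difference of 1.2. These differences, like those that follow unless stated otherwise, are the mean of both hairpins minus luciferase.

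Mettl3 itself was measured at 8.97 and 8.67 on the hairpin 1 arrays, 8.71 and 8.66 on the hairpin 2 arrays, and 10.38, 10.46 and 10.14 on the luciferase arrays. The mean of both hairpins lay 1.57 log2 units below luciferase, and the knockdown arrays were apart from every luciferase array. On the second principal component hairpin 1 replicate 2 lay farthest out, at -17.8, with the other arrays between -10.4 (luciferase replicate 3) and 11.5 (luciferase replicate 2). All 10 listed markers of pluripotent stem cells were tested, and none passed in limma (1 at an unadjusted p below 0.05). Of all 16353 genes, 3958 had an unadjusted p below 0.05 for both hairpins against luciferase. The summed level of the markers was 15.70 to 15.75 for hairpin 1, 15.71 to 15.74 for hairpin 2 and 15.73 to 15.86 for luciferase.

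Of the 9 genes, 5 passed the whole-table test for both hairpins together against luciferase (Benjamini-Hochberg adjusted p below 0.05 in limma), 4 higher and 1 lower. Of all genes 7.90% passed, 5.53% higher and 2.37% lower (904 and 388 genes, or 696 and 703 once arrays were centred on their median gene). The genes were chosen on this contrast, so nothing is read from that count. In 6 of the 9 genes the 4 knockdown arrays lay beyond all 3 luciferase arrays, 5 above and 1 below, against 21.8% of all genes (13.4% above and 8.40% below). The median difference of the 9 genes was 0.29, and that of all genes was 0.00. The genes were chosen on these differences, so nothing is read from these values either. Without the 2 arrays lowest on the second component, hairpin 1 replicate 2 and luciferase replicate 3, Ina differed by 1.31, Nefl by 0.68, Map2 by 0.79, Nes by 0.45 and Mapt by -0.39, and the calls of Nes and Mapt were lost.

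**Figure D1:**
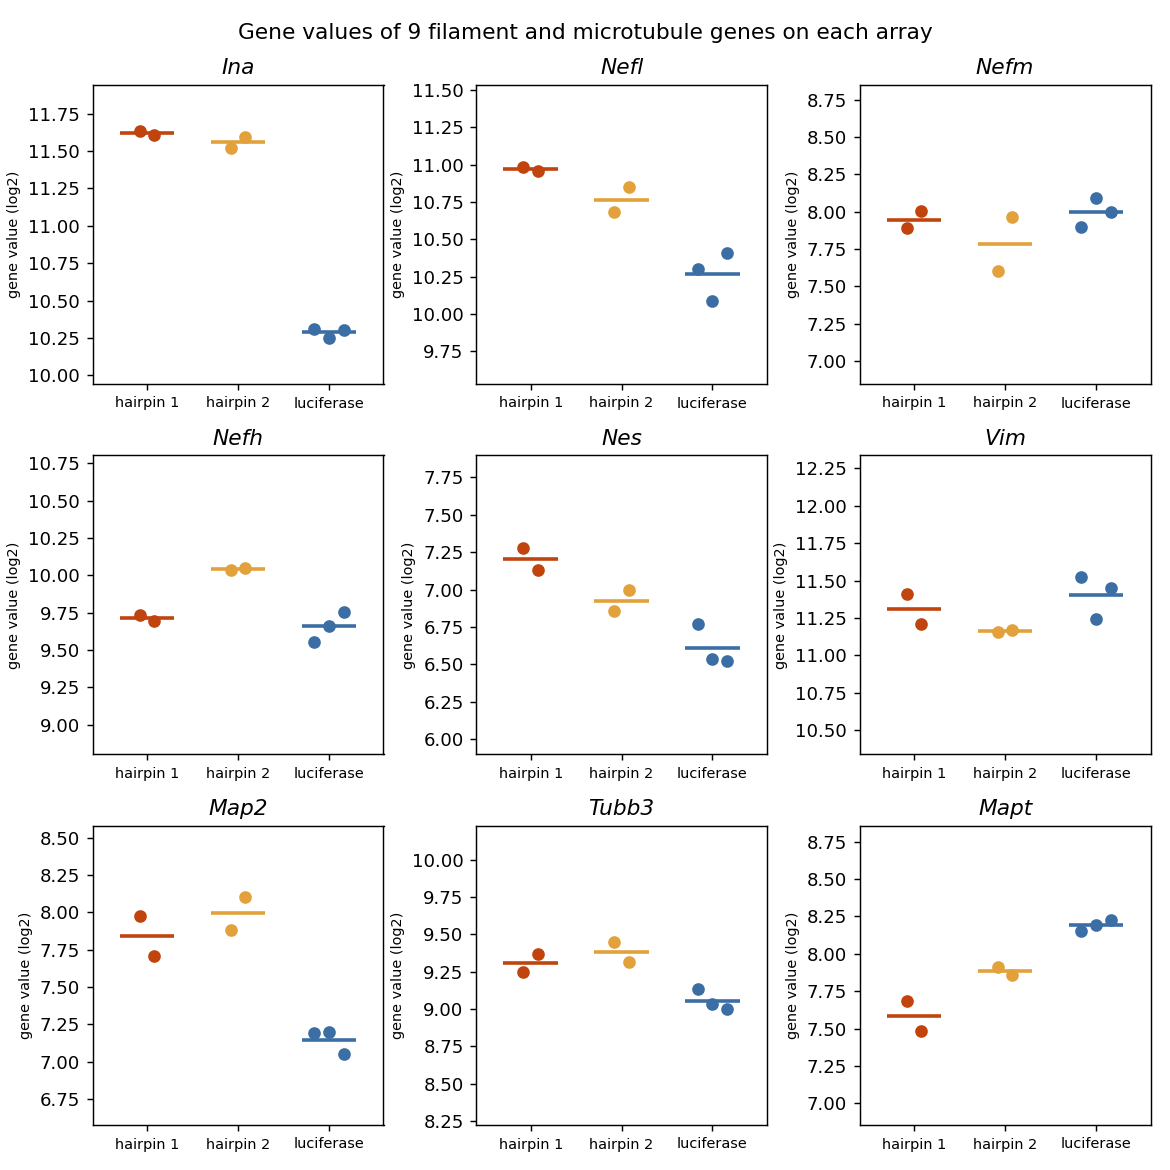
Gene values (log2) of the 9 genes on each array, grouped as Mettl3 hairpin 1 (2 arrays), hairpin 2 (2) and luciferase (3), with 1 point per array and a bar at the group mean. For Ina the hairpin arrays sit at 11.52 to 11.63 and the luciferase arrays at 10.25 to 10.31, and for Vim the groups overlap.

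Ina, which encodes alpha-internexin, rose most among the 9. It had 11.63 and 11.61 on the hairpin 1 arrays, 11.52 and 11.59 on the hairpin 2 arrays, and 10.31, 10.25 and 10.31 on the luciferase arrays. The 4 knockdown arrays lay above every luciferase array, and the difference was 1.30 ± 0.07 (SE) on the log2 scale, or 2.46-fold. All 6 of its probe sets were bright, all 6 were higher in the knockdown, and in all 6 the knockdown arrays lay beyond the luciferase arrays. Over all genes, 53.7% of bright probe sets and 48.2% of dim ones were higher in the knockdown. In 12.0% of the bright ones the knockdown arrays lay above every luciferase array. As the 9 genes were chosen on this contrast, such counts of their probe sets are a description, here and below. Of the 6 in Ina, probe set 4556201 had the largest difference, 1.37. It had 10.36 and 10.18 on the hairpin 1 arrays, 10.20 and 10.37 on the hairpin 2 arrays, and 8.97, 8.79 and 8.98 on the luciferase arrays. Probe set 4485002 had the smallest, 0.96, so no probe set of Ina was without a difference. Over 17 alternatives to the processing the difference of Ina was 1.23 to 1.32.

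Nefl, the neurofilament light chain on which the other chains assemble, rose by a much smaller amount. It had 10.98 and 10.96 on the hairpin 1 arrays, 10.68 and 10.85 on the hairpin 2 arrays, and 10.30, 10.08 and 10.41 on the luciferase arrays, which do not overlap with the knockdown arrays. The difference was 0.60 ± 0.10 (SE), and the gene value followed 1 probe set. Probe set 5192374, with a difference of 0.62, was the middle one of the 7 bright probe sets on 6 of the 7 arrays and so gave the gene value there. All 7 probe sets were higher in the knockdown, and the smallest difference was 0.10, but 1 of the 7 exceeded 0.5 and their median difference was 0.19. With the mean over probe sets in place of the median the difference was 0.26, and with median polish it was 0.32.

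Nefm and Nefh, the medium and heavy chains, did not pass. Nefm had 7.89 and 8.0 on the hairpin 1 arrays, 7.60 and 7.96 on the hairpin 2 arrays, and 7.90, 8.09 and 8.0 on the luciferase arrays, and the groups overlap. The difference was -0.13 ± 0.10 (SE). Of its 13 bright probe sets 12 were lower in the knockdown, with a median of -0.19 and a range from -0.42 to 0.04, and its 1 dim probe set had -0.03. Nefh had 9.73 and 9.69 on the hairpin 1 arrays, 10.03 and 10.05 on the hairpin 2 arrays, and 9.56, 9.66 and 9.76 on the luciferase arrays. The hairpin 2 arrays lay above all luciferase arrays, and the hairpin 1 arrays lay among them. The difference of both hairpins from luciferase was 0.22 ± 0.08 (SE). Its 17 probe sets, all bright, split by hairpin. With hairpin 2, 13 of 17 were higher than luciferase (median 0.21), and with hairpin 1, 5 of 17 were (median -0.03). The 8 brightest were all higher over both hairpins, against 4 of the 9 less bright ones (median -0.09).

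**Figure D2:**
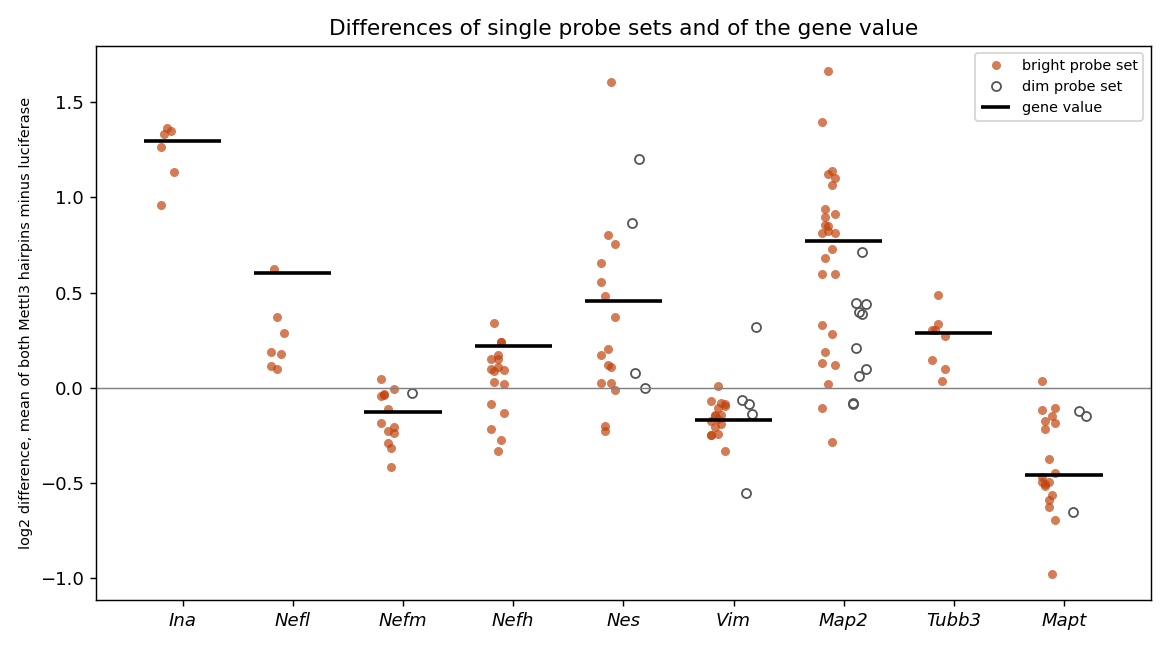
Difference of each bright and dim probe set, both hairpins minus luciferase (log2), by gene, with 1 point per probe set and a black line at the difference of the gene value. The 6 Ina points lie between 0.96 and 1.37, and the 26 bright Map2 points spread from -0.29 to 1.66.

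Nes, which encodes nestin, rose, and its difference depended on which probe sets were counted. It had 7.28 and 7.13 on the hairpin 1 arrays, 6.85 and 7.0 on the hairpin 2 arrays, and 6.77, 6.53 and 6.52 on the luciferase arrays. The knockdown arrays lay above the luciferase arrays, by 0.46 ± 0.09 (SE). The 16 bright probe sets ran from -0.23 to 1.61, with a median of 0.19, and 13 of 16 were higher. The largest, probe set 4771510, had 7.47 and 6.57 on the hairpin 1 arrays, 6.97 and 7.0 on the hairpin 2 arrays, and 5.68, 5.46 and 5.03 on the luciferase arrays. Its luciferase mean was 5.39, so it counted as bright only through the knockdown arrays. With probe sets kept by their luciferase mean alone, the difference of Nes was 0.29 and its call was lost. The 3 brightest probe sets of Nes had -0.20, -0.23 and -0.01. The 8 less bright were all higher, with a median difference of 0.38, and 5 of the 8 brighter were, with a median of 0.10, and the 4 dim probe sets had a median of 0.47 (range -0.00 to 1.2). Keeping only probe sets above a stricter brightness, 7.57, turned the sign, to -0.15. The call of Nes was also lost with no filter on dim probe sets and with replicate number added to the fit. It was lost as well without luciferase replicate 2 or 3, hairpin 1 replicate 1 or hairpin 2 replicate 2. Only luciferase had a replicate 3, so adding replicate number and leaving out that array gave the same difference, 0.41.

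Vim, which encodes vimentin, did not pass. It had 11.41 and 11.21 on the hairpin 1 arrays, 11.15 and 11.17 on the hairpin 2 arrays, and 11.52, 11.24 and 11.45 on the luciferase arrays, and the groups overlap, with a difference of -0.17 ± 0.09 (SE). Of its 17 bright probe sets 16 were lower (median -0.15), and 4 of 5 dim ones were.

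Map2, the dendritic microtubule-associated protein, rose. It had 7.98 and 7.71 on the hairpin 1 arrays, 7.88 and 8.11 on the hairpin 2 arrays, and 7.19, 7.20 and 7.05 on the luciferase arrays. The knockdown arrays all lay above the luciferase arrays, by 0.77 ± 0.10 (SE) or 1.71-fold. Map2 had 26 bright probe sets, 2 of them bright only through the knockdown arrays, so the counts are a description. Of the 26, 24 were higher, with a median of 0.81. In 16 of 26 the knockdown arrays lay above every luciferase array, against 12.0% of bright probe sets of all genes. The largest, probe set 4716915, had 8.52 and 8.65 on the hairpin 1 arrays, 8.78 and 8.76 on the hairpin 2 arrays, and 7.0, 7.08 and 6.95 on the luciferase arrays, a difference of 1.66. The smallest, probe set 4506374, had 6.82 and 6.85 on the hairpin 1 arrays, 7.43 and 6.85 on the hairpin 2 arrays, and 7.28, 7.35 and 7.19 on the luciferase arrays, a difference of -0.29. Its 10 dim probe sets were less apart: 8 of 10 were higher, with a median of 0.30, and in none were the knockdown arrays beyond the luciferase arrays, where 3.54% of dim probe sets of all genes lay above and 3.71% below. A gene value of Map2 from the dim probe sets alone differed by 0.37 and did not pass.

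**Figure D3:**
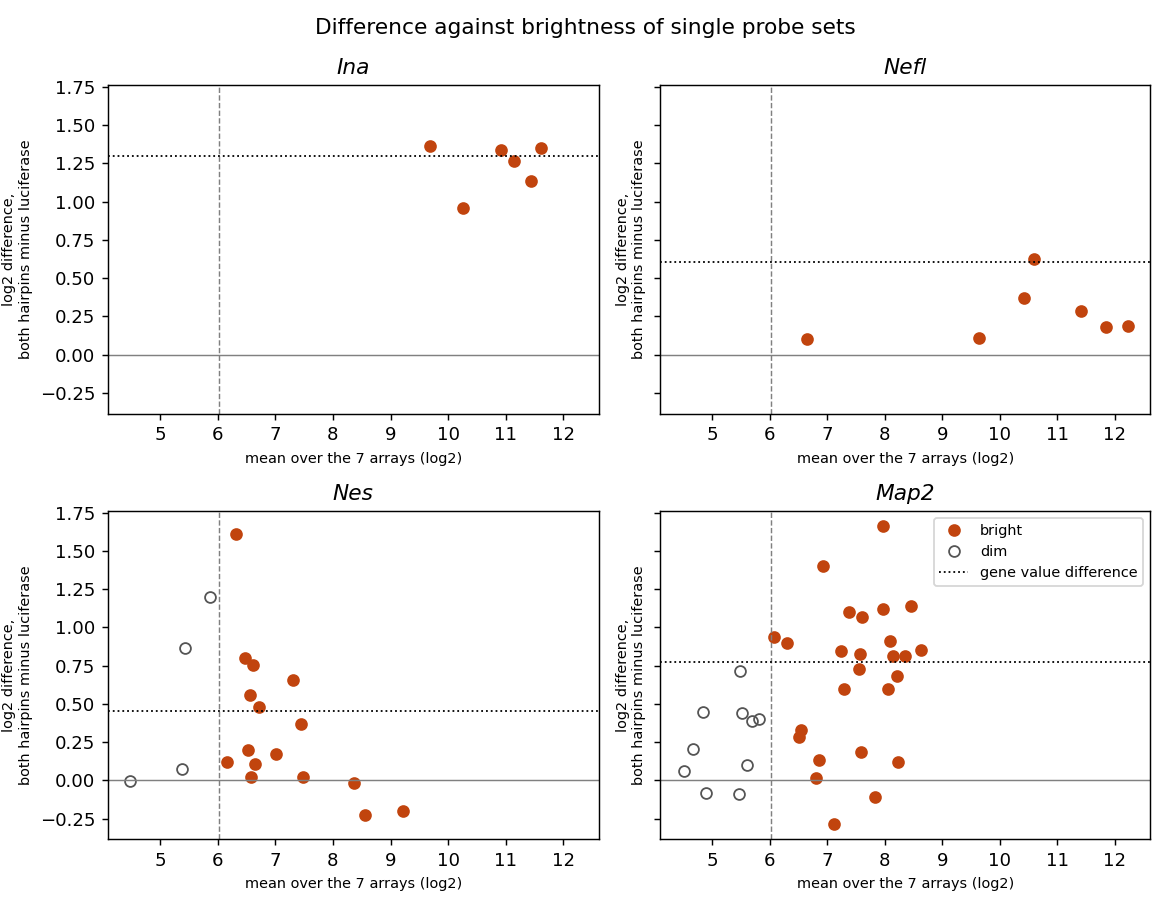
Difference of each probe set (both hairpins minus luciferase, log2) against its mean over the 7 arrays (log2) for Ina, Nefl, Nes and Map2, with filled points for bright and open points for dim probe sets, a dashed line at the limit between them and a dotted line at the difference of the gene value. The Nes points fall towards 0 and below as brightness rises, and 1 Nefl point lies at its dotted line.

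Tubb3, the class III beta-tubulin gene, did not pass. It had 9.25 and 9.37 on the hairpin 1 arrays, 9.45 and 9.31 on the hairpin 2 arrays, and 9.14, 9.03 and 9.0 on the luciferase arrays, which did not overlap with the knockdown arrays. The difference was 0.29 ± 0.08 (SE), and all 8 probe sets, all bright, were higher, by 0.04 to 0.49. Its adjusted p in limma was 0.0606. Over 17 alternatives the difference was 0.22 to 0.33, and Tubb3 passed in 4 of the 17.

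Mapt, which encodes tau, fell. It had 7.68 and 7.48 on the hairpin 1 arrays, 7.91 and 7.86 on the hairpin 2 arrays, and 8.15, 8.19 and 8.23 on the luciferase arrays. All knockdown arrays lay below all luciferase arrays, by -0.46 ± 0.08 (SE). Of its 19 bright probe sets 18 were lower, with a median of -0.47 and a range from -0.98 to 0.04, and in 10 of 19 the knockdown arrays lay below every luciferase array, against 5.98% of bright probe sets of all genes. Probe set 5284007 had the largest difference, with 7.61 and 7.48 on the hairpin 1 arrays, 8.08 and 7.67 on the hairpin 2 arrays, and 8.56, 8.68 and 8.84 on the luciferase arrays. Its 3 dim probe sets were all lower. Mapt was below luciferase in all 18 alternatives, and its call was also lost with no filter on dim probe sets and with replicate number added to the fit.

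Taking each hairpin alone against luciferase, 5 of the 9 genes passed for hairpin 1, where 5.89% of all genes did, and 3 for hairpin 2, where 3.79% did. The 3 were Ina, Nefl and Map2, and hairpin 2's call of Nefl held in 6 of 18 alternatives. These contrasts hold the values on which the genes were chosen, so nothing is read from these counts either. The hairpins were then tested against each other, which the choice of the genes did not use. No gene of the 9 passed, with adjusted p from 0.396 to 0.900 in limma, where 17 of 16353 genes (0.104%) passed. Of the 9, 3 had an unadjusted p below 0.05. The share of all genes below it was not counted for this contrast, so nothing is read from that count. The largest difference was that of Nefh, -0.33 (95% interval -0.56 to -0.09), hairpin 1 minus hairpin 2. Mapt had -0.30 (-0.54 to -0.07) and Nes 0.28 (0.00 to 0.55). For Ina the difference was 0.06 (-0.15 to 0.28), for Map2 -0.15 (-0.44 to 0.13) and for Nefl 0.20 (-0.08 to 0.48). A p that misses the threshold does not show that the hairpins act alike.

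**Figure D4:**
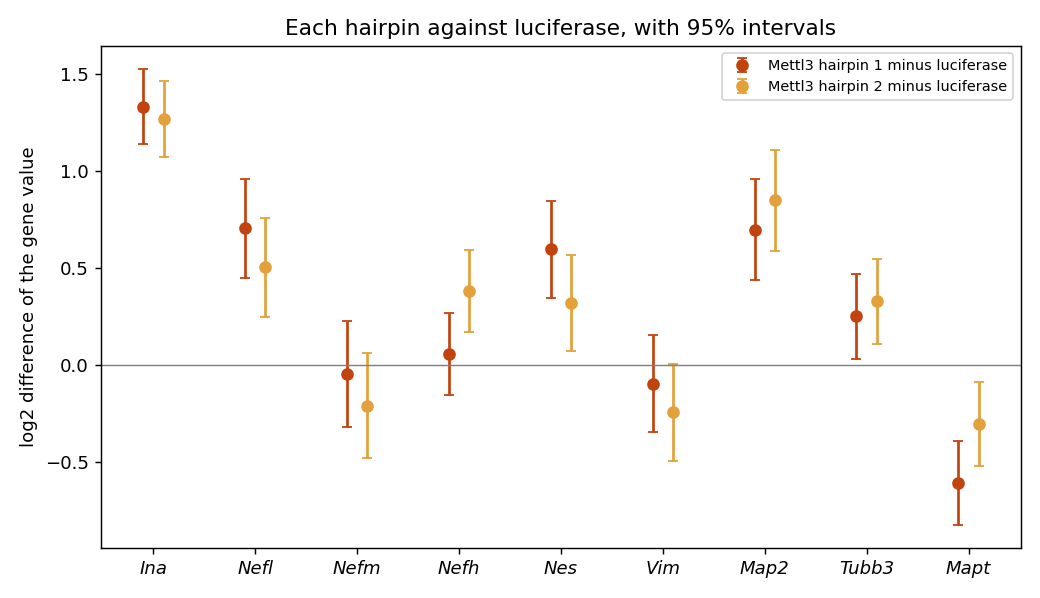
Difference of the gene value of each of the 9 genes for hairpin 1 and hairpin 2, each minus luciferase (log2), with bars for the 95% intervals of the fit. Both hairpins lie near 1.3 for Ina, and for Nefh hairpin 2 lies at 0.38 and hairpin 1 at 0.06.

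Whether the probe sets of a gene differed by unlike amounts (exon usage, both hairpins against luciferase) was tested with diffSplice of limma over 16353 genes, of which 969 (5.93%) passed. Nes (adjusted p = 3.3e-05), Map2 (0.000733) and Mapt (0.0401) passed, and the other 6 genes did not (adjusted p 0.199 to 0.946). In Nes, probe set 4771510 stood 1.35 log2 units above the others, and it was the 1 of 16 Nes probe sets that passed. It entered the test through the knockdown arrays, as given above. With probe sets kept by their luciferase mean alone, an alternative added after the data were seen, Nes had an adjusted p of 0.266 and Mapt of 0.0548, and Map2 passed (0.000127). In the main test 4 of 26 Map2 probe sets passed, 2 above the others and 2 below. The farthest were probe set 4716915, 1.02 above, and probe set 4506374, 1.01 below. In Mapt 1 of 19 passed, probe set 5284007, with -0.61 relative to the others. The call of Nes was lost with the stricter brightness (adjusted p = 0.779). That of Mapt was lost with no filter on dim probe sets (0.141) and with replicate number added to the fit (0.514). It was also lost without any 1 array other than hairpin 2 replicate 1 (up to 0.405). Nefh passed without hairpin 1 replicate 1 (0.0398) or replicate 2 (0.000299). This test takes 1 spread for all probe sets of a gene. Where each probe set had its own spread, also added after the data were seen, no gene passed, with 1581 at an unadjusted p below 0.05, and Nes had an adjusted p of 0.468, Map2 0.368 and Mapt 0.477.

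Other genes of the same system were taken from lists chosen with earlier results known. Of 12 other intermediate filament genes 1 fell and none rose (median -0.06). That gene was Lmna, which encodes lamins A and C, at -0.40 (limma, adjusted p = 0.031). Of 27 other microtubule-associated proteins 1 rose and 1 fell (median 0.02). Map1b, a microtubule-binding protein of growing axons, had 10.66 and 10.59 on the hairpin 1 arrays, 10.38 and 10.44 on the hairpin 2 arrays, and 9.88, 9.91 and 9.78 on the luciferase arrays, a difference of 0.66 (adjusted p = 0.00127). Map10 had -0.47 (adjusted p = 0.0369) on 3 bright probe sets. Of 15 other tubulins 2 rose (median 0.02), Tubb6 by 0.52 (adjusted p = 0.00433) and Tubb1 by 0.38 (adjusted p = 0.0395). Of 16 motor genes of axonal transport 2 rose (median 0.19), the kinesins Kif1a by 0.51 (adjusted p = 0.00431) and Kif21a by 0.34 (adjusted p = 0.0248). Kif1a had 0.79 with hairpin 1 and 0.22 with hairpin 2. Of 18 tau kinases and tubulin-modifying enzymes none passed in limma, with 5 at an unadjusted p below 0.05 (median 0.03). The 2 largest differences were those of Mark4, a kinase of tau, at 0.32 (adjusted p = 0.0558) and its relative Mark1 at 0.29 (adjusted p = 0.0566). Each count stands beside a median of 0.00 and 904 rises and 388 falls over all 16353 genes. Of those 16353 genes, 3958 had an unadjusted p below 0.05. So did 5 of the 12 filament genes, 8 of the 27 microtubule-associated proteins, 3 of the 15 tubulins and 9 of the 16 motors. The lists were chosen with earlier results known, so nothing is read from these counts. With arrays left out 1 at a time, the call of Lmna held only without hairpin 1 replicate 1, that of Map10 only without hairpin 1 replicate 1 or hairpin 2 replicate 2, that of Tubb1 only without hairpin 2 replicate 2, and that of Kif21a only without luciferase replicate 3 or hairpin 1 replicate 1. By contrast, the calls of Map1b, Tubb6 and Kif1a held without any 1 array. With probe sets kept by their luciferase mean alone Kif1a had 0.41 and its call was lost (adjusted p = 0.0563), and Map1b turned to -0.30 without the filter on dim probe sets.

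Patterns over the 7 arrays were compared by the root mean square difference after subtracting each gene's luciferase mean, which favours genes of like size. The genes nearest to Ina were Naaa (0.101), Atp10a (0.142), Dppa3 (0.144), Zfp280c (0.167) and Slc23a1 (0.194), and those nearest to Map2 were Clvs2 (0.0487), Med12l (0.0551), Lad1 (0.0699), Lrrc8b (0.0753) and Fgfr2 (0.0870). Among the 9 themselves the nearest pairs were Nefh and Tubb3 (0.153), Nefl and Nes (0.161) and Nefm and Vim (0.181).

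Markers of other cell types were measured beside these genes, with the genes of the 9 left out. Of all 16353 genes, 8193 were higher, 904 passed as higher and 388 as lower, and 3958 had an unadjusted p below 0.05. A summed level adds the linear values of a list's genes on each array, so its brightest genes set it. Of 8 tested neuron markers (Dcx and Rbfox3 were not tested) Snap25 rose by 0.70 and Elavl3 by 0.34. Of the 8, 3 had an unadjusted p below 0.05 and 6 were higher, with a median difference of 0.13. Their summed level was 12.26 to 12.47 for hairpin 1, 12.40 to 12.43 for hairpin 2 and 12.45 to 12.66 for luciferase, and its brightest gene, Stmn2, differed by -0.25 and did not pass. Of 6 neural progenitor markers (Fabp7 was not tested) Sox1 fell by 0.39 on the log2 scale (limma, adjusted p = 0.0488). Pax6 differed by 0.27 and did not pass (adjusted p = 0.101). Of the 6, 3 had an unadjusted p below 0.05 and 2 were higher, with a median of -0.06. Their summed level was 10.53 to 10.54, 10.57 to 10.59 and 10.64 to 10.68 in the same order. Of 8 fibroblast markers (Lum was not tested) none passed in limma (2 at an unadjusted p below 0.05), and 1 of 8 was higher, with a median of -0.13. Their summed level was 12.52 to 12.55, 12.50 to 12.51 and 12.39 to 12.44, and its brightest gene, Fn1, was the 1 that was higher, at 0.17. Of 5 tested glial markers none passed in limma (0 at an unadjusted p below 0.05), with a median of 0.03 and a summed level of 11.00 to 11.05, 10.95 and 10.94 to 11.03. The part of these markers in the differences was not tested. In bulk samples, fewer cells of a type and less RNA per cell cannot be told apart.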

How the data were processed

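The authors deposited log2 values of 1201338 exon-level probe sets for 7 arrays. The submitters' processing notes name RMA and R 2.11.1. Per the labels, total RNA was isolated with Trizol and RNeasy, amplified with the Ambion WT Expression kit and labelled with biotin. Because RMA equalises the arrays, a general rise or fall of most transcripts would be hidden. The array medians were 6.03 to 6.07. How probe sets were defined, the build and filtering: not given in the sources used here.

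Symbols came from GEO's platform annotation: 311384 probe sets had 1 symbol, 6385 several and 883569 none, and 45560 older symbols were updated through a RefSeq gene table (GRCm38.p6), with 834 kept as given. Gene values were medians of bright probe sets (mean above 6.02 on the log2 scale), with at least 3 required, which left 229811 probe sets and 16353 genes. Groups were compared by lmFit and eBayes (limma 3.58.1, R 4.3.3) on all 7 arrays, with a mean for each group and 4 residual degrees of freedom, with Benjamini-Hochberg adjustment over all genes and a threshold of 0.05. The gene-level and exon-usage fits were also run on simulated probe sets. Their noise was drawn independently for each probe set and array, without variation shared on an array, so nothing about the calls is read from that. No test of single probe sets between hairpins and luciferase passed over all probe sets (0 of 1201338, with 108099 at an unadjusted p below 0.05, and 8557 with trend and robust settings), so probe sets are described by counts.

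The 9 genes, the lists and the tests were chosen with earlier results of these data known. Named were the 9 genes with their bright probe sets of largest and smallest difference, Mettl3, up to 4 called genes of each list (the 2 largest differences where none was called) and the 5 genes nearest to Ina and to Map2. Other probe sets were named where a test turned on them. Promoter windows come from RefSeq's GRCm38.p6 table. The labels do not say whether replicate numbers pair the arrays. Correlations of same-numbered arrays were -0.262 to 0.0833. The 2 arrays of a hairpin gave correlations of equal size and opposite sign, so these values cannot settle the pairing. A replicate block adds replicate number to the fit. 1 listed marker is not reported here.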

Additional observations from a re-analysis of the deposited data

How the results depend on the processing

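For both hairpins against luciferase, Ina, Nefl, Map2 and Mapt kept their direction under all alternatives run, with calls in 17 of 17, 17 of 17, 17 of 18 and 14 of 18, and Nes was called in 8 of 18. Counts of genes called for both hairpins against luciferase were 1292, against 484 with no filter on dim probe sets, 6 with dim probe sets only, 2840 with means, 2469 with median polish, 540 with the replicate block and 705 without hairpin 1 replicate 2 and luciferase replicate 3 together (added after the data were seen), and 605 to 1098 without 1 array (lowest without hairpin 2 replicate 2, next 638 without luciferase replicate 1, 804 without hairpin 1 replicate 1, 817 without luciferase replicate 3 and 846 without hairpin 2 replicate 1). The members called were 5, against 3 with no filter, 0 with dim probe sets only, 3 with the block (not Nes or Mapt), 3 without both arrays, and 4 to 5 without 1 array. For hairpin 1 the 964 calls became 320 with no filter, 1503 with the stricter filter, 2 with dim only, 2259 with means, 2072 with median polish, 460 with the block, 266 without both arrays and 271 to 729 without 1 array. For hairpin 2 the 619 became 92, 1073, 0, 1626, 1439, 208, 317 and 63 to 577 in the same order. For hairpin 1 against hairpin 2 the 17 became 0 with no filter, 34 with the stricter filter, 8 with the luciferase-mean filter, 0 with dim only, 79 with means, 76 with median polish, 29 with robust fits, 3 with the block, 2 with only the groups compared, 0 without both arrays and 0 to 4 without 1 array; a block with crossed numbers gave 4. Exon usage called 969 genes, against 514 with the block (where Mapt had an adjusted p of 0.514), 0 with own spreads and 327 to 1325 without 1 array. Single probe sets gave 0 calls, against 8557 with trend and robust settings. Signs turned for Map1b with no filter (-0.30), for Nes with the stricter filter (-0.15 for both hairpins, -0.090 for hairpin 1, -0.22 for hairpin 2), for Clvs2 with dim probe sets only (-0.081), and between the hairpins for Mapt with dim probe sets only (0.0071), Tubb3 with means (0.015) and median polish (0.0061), Mettl3 without hairpin 1 replicate 1 (-0.014, with up to 0.29 without another array) and Nefm without hairpin 2 replicate 1 (-0.016, with up to 0.34). For hairpin 1 against luciferase, where none of them was called, signs also turned for Nefh with the stricter filter, means and median polish (to -0.093 at the lowest), for Nefm in 2 and Vim in 2 alternatives (to 0.0062 and 0.026 at the highest). The causes of these shifts were not tested. Centring on the median of all genes left 696 higher and 703 lower calls in place of 904 and 388. Dim means only at or below the median of all probe sets, and the background of the array was not measured.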
